A study of Schizosaccharomyces pombe with 3 samples.

Results

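Centromeres 1 and 3 of the fission yeast Schizosaccharomyces pombe were read in consecutive windows (bins) of 200 bp, from per1 to emc5 on chromosome 1 and from chk1 to ppc1 on chromosome 3 of the reference assembly ASM294v3. The spans hold 585 bins, 195 at centromere 1 and 390 at centromere 3, out of 62858 in the nuclear genome. A bin was used where at least 50% of its bases start a 45-base sequence that occurs once in the genome, since at least 99.1% of the deposited nuclear reads of each library spanned 45 bases and those began at unique sites. That left 53 bins, 11 at centromere 1 and 42 at centromere 3, which is 9.06% of these centromeres against 95.84% of the genome. The choice rests on the reference sequence and on no read count. Chromatin immunoprecipitation followed by sequencing (ChIP-seq) had been carried out once for each of 3 groups, all labelled strain 972 h- and harvested in log phase from YEA medium with 2% glucose. The bead control used cells without a TAP tag and beads that carried no antibody. For Pol II, chromatin of cells likewise without a tag was precipitated on Protein G beads with antibody 4H8, which recognises the C-terminal domain (CTD) of Pol II. For Med7, a subunit of Mediator, chromatin of cells with the TAP-tagged protein was precipitated on IgG beads. The Med7 library thus differs from the bead control in its tag and in its beads, and chromatin without a tag on IgG beads was not analysed here. With 1 library per group there is no replicate check and no p-value. Each interval given is a 95% interval for counting error alone, and reads copied by PCR are not independent molecules.

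A fission yeast centromere has a central core, on which nucleosomes with the histone variant CENP-A form and the kinetochore assembles. An inverted pair of inner repeats flanks the core, and arrays of outer repeats of the dg and dh families lie outside them. The outer repeats are packed into heterochromatin through RNA interference acting on transcripts that Pol II makes there, and tRNA genes stand at several borders between these domains. Mediator is the large complex that links transcription factors to Pol II at promoters.

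The unique sequence decides where these reads can be seen. Core 1 (chr1:3769078-3773195) and core 3 (chr3:1097071-1101923) share a block of 3308 aligned bp with 99.788% identity, which covers 80.31% of core 1 and 61.63% of core 3 and runs past the right end of core 3. As a result 23.4% of core 1 and 39.9% of core 3 is unique, whereas core 2 is unique over its whole 6803 bp. The used bins were 4 of 20 in core 1 and 10 of 24 in core 3. At the outer edges, defined as the stretch from the flanking gene to the first 5 bins in a row under the limit, they were 5 of 5 at centromere 1 and 32 of 35 at centromere 3. None of the 90 bins of the inner arms was used, and of the 411 outer repeat bins only 2 were, both at centromere 1. Of the 532 bins left out, 481 held no read in any library. The dg and dh repeats and the inner arms are thus almost unmeasured here, and the results below concern the unique ends of the cores and the edges next to the flanking genes.

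The sequences that carry the results are the used bins with the highest Med7 fold in each core, the core 3 bin with the lowest Med7 fold, the bin with the highest Pol II fold at each centromere, and the bin with the tRNA gene nearest the centre of core 3. They were read from the plus strand of ASM294v3. Capitals mark runs of 6 or more A or T, except in the last, where they mark the tRNA gene SPCTRNAGLU.10 (chr3:1097499-1097570), annotated on the minus strand.
core 1, highest Med7 fold, chr1:3772730-3772929: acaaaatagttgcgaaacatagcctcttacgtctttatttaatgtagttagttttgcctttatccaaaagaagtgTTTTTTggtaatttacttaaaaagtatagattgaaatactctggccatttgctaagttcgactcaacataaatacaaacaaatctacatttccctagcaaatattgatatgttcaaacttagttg
core 3, highest Med7 fold, chr3:1098444-1098643: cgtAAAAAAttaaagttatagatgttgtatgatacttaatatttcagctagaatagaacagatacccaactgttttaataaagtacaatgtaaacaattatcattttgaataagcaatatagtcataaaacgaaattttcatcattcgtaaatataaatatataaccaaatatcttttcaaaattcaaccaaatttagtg
core 3, lowest Med7 fold, chr3:1098044-1098243: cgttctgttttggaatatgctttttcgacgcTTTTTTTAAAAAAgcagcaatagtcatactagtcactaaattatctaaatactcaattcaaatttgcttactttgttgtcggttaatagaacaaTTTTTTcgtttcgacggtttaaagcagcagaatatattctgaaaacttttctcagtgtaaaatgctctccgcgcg
centromere 1, highest Pol II fold, chr1:3779730-3779929: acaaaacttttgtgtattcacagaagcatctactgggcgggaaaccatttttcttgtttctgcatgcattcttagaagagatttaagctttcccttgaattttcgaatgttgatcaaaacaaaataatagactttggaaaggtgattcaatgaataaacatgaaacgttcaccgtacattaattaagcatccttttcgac
centromere 3, highest Pol II fold and highest Med7 fold, chr3:1064644-1064843: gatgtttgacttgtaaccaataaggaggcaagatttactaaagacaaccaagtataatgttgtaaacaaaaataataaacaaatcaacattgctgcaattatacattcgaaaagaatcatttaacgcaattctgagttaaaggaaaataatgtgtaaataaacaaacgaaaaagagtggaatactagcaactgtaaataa
core 3, bin of the tRNA gene nearest its centre, chr3:1097444-1097643: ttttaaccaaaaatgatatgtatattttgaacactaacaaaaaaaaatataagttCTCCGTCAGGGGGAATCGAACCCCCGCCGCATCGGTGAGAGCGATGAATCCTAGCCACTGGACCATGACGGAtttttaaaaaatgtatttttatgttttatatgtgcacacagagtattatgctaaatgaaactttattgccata
The bins differ in base composition. The core 3 bin with the highest Med7 fold has 22.5% GC and 1 run of 6 or more A or T, while the bin with the lowest has 33.0% GC and 3 such runs. The motif AAAAAA, searched with its complement TTTTTT so that both strands are covered, occurs in 12 of the 14 used core bins, which is 85.7%, against 56.8% of non-coding bins outside the centromeres and 42.6% of all used bins of the genome. It occurs in 19 of the 37 used edge bins, or 51.4%. The motif TATAAA, searched with its complement TTTATA, occurs in 4 of the 14 core bins (28.6%) and 16 of the 37 edge bins (43.2%). It occurs in 36.8% of the non-coding bins and 24.8% of all used bins of the genome. Neither comparison was matched for GC, whose mean was 30.4% in the core bins, 30.5% in the edge bins, 31.8% in the non-coding bins and 36.1% in all used bins. These are counts of letters and not of bound sites.

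Few reads stand behind each bin. The 53 used bins held 632 control reads, 741 Pol II reads and 757 Med7 reads, from libraries of 630825, 1687058 and 696101 nuclear reads outside the ribosomal DNA repeats. Levels are reads per 1000000 of those totals (RPM), and for sums over bins as RPM per kb of unique sequence. A fold divides the RPM of Pol II or Med7 by the RPM of the bead control. A single bin held 3 to 19 control reads, 3 to 25 Pol II reads and 4 to 30 Med7 reads, so sums over bins are given first. Mitochondrial reads made up 6.84% of the control, 7.73% of the Pol II and 23.8% of the Med7 library and are outside these totals.

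Summed over the used centromere sequence, Pol II was low and the bead control was high, though the control was not distinguishably raised in core 1. Over all 53 bins the level was 102.2 RPM per kb for the control, 44.8 for Pol II and 110.9 for Med7. In the 9540 used bins outside the centromeres that hold no protein-coding transcript (non-coding bins), the levels were 69.0, 55.2 and 95.5. Against those bins the centromere control level was 1.48 times as high (1.37 to 1.60), the Pol II level 0.812 times as high (0.754 to 0.872) and the Med7 level 1.16 times as high (1.08 to 1.25). All 3 differences exceed counting error, and the control differed most from the non-coding bins. The Pol II fold was 0.438 (0.394 to 0.488) over the centromere bins against 0.800 over the non-coding bins. The Med7 fold was 1.08 (0.975 to 1.21) against 1.38. What raised the control level at these bins was not tested.

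**Figure D1:**
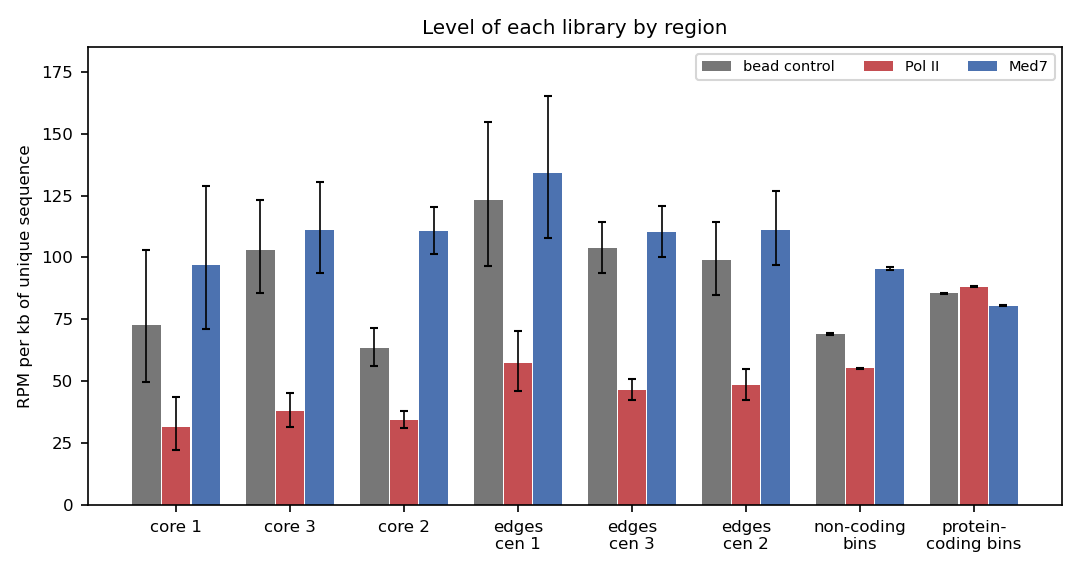
Level of each library in RPM per kb of unique sequence, summed over the used bins of each core, of the edges of each centromere, and of non-coding and protein-coding bins elsewhere; bars are the 3 libraries and error bars are 95% intervals for counting error. Pol II is the lowest library in every core and edge, Med7 lies between 97 and 134.3 RPM per kb in all of them, and the control is higher in core 3 (103.1) than in core 2 (63.6).

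Bin by bin, a Pol II fold was called low at 0.5 or less with an interval below 1, and high at 2 or more with an interval above 1. Of the 50 bins with at least 10 reads in the Pol II and control libraries together, 28 were low, which is 56.0%, and 0 were high. Across the genome 15.9% of tested bins were low and 7.55% high, and among the non-coding bins 19.1% were low and 3.76% high. The median fold of the 50 bins was 0.400 and 5 of them were above 1, against medians of 0.774 over all tested bins and 0.673 over the tested non-coding bins. The low bins lay at both centromeres, 4 of 9 tested at centromere 1 and 24 of 41 at centromere 3. Scaling to the median unique 1-kb bin multiplies every Pol II fold by 1.41, a shift of 0.49 on the log2 scale. On that scale 11 of the 50 were low, still against a background of 5.65% of all bins and 7.59% of non-coding bins.

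Med7 over the control was near 1. Of 52 tested bins, 3 were high against a background of 5.58% of all bins and 13.3% of non-coding bins, and 2 were low against 5.89% and 1.37%. The median was 1.10, with 30 bins above 1 and 22 below, against medians of 0.997 over all bins and 1.41 over non-coding bins. The share of high bins, 5.77%, is close to that of all bins and is not a result about the centromeres. The 3 high bins and the 2 low bins all lay at centromere 3, which held 42 of the tested bins against 10 at centromere 1.

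Set directly against each other, Med7 exceeded Pol II at the centromeres. The Med7 level was 2.48 times the Pol II level (2.23 to 2.74) over the 53 bins, against 1.73 times in the non-coding bins. Of 52 tested bins 29 were high by the same rule, or 55.8%, against a background of 19.8% of all bins and 43.6% of non-coding bins, and 0 were low, against 9.53% and 2.6%. The median was 2.54 against 2.17 over the tested non-coding bins. This ratio leaves out the control, yet it compares libraries made with different beads and a tag in only one of them, which cannot be told apart from a difference in occupancy.

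**Figure D2:**
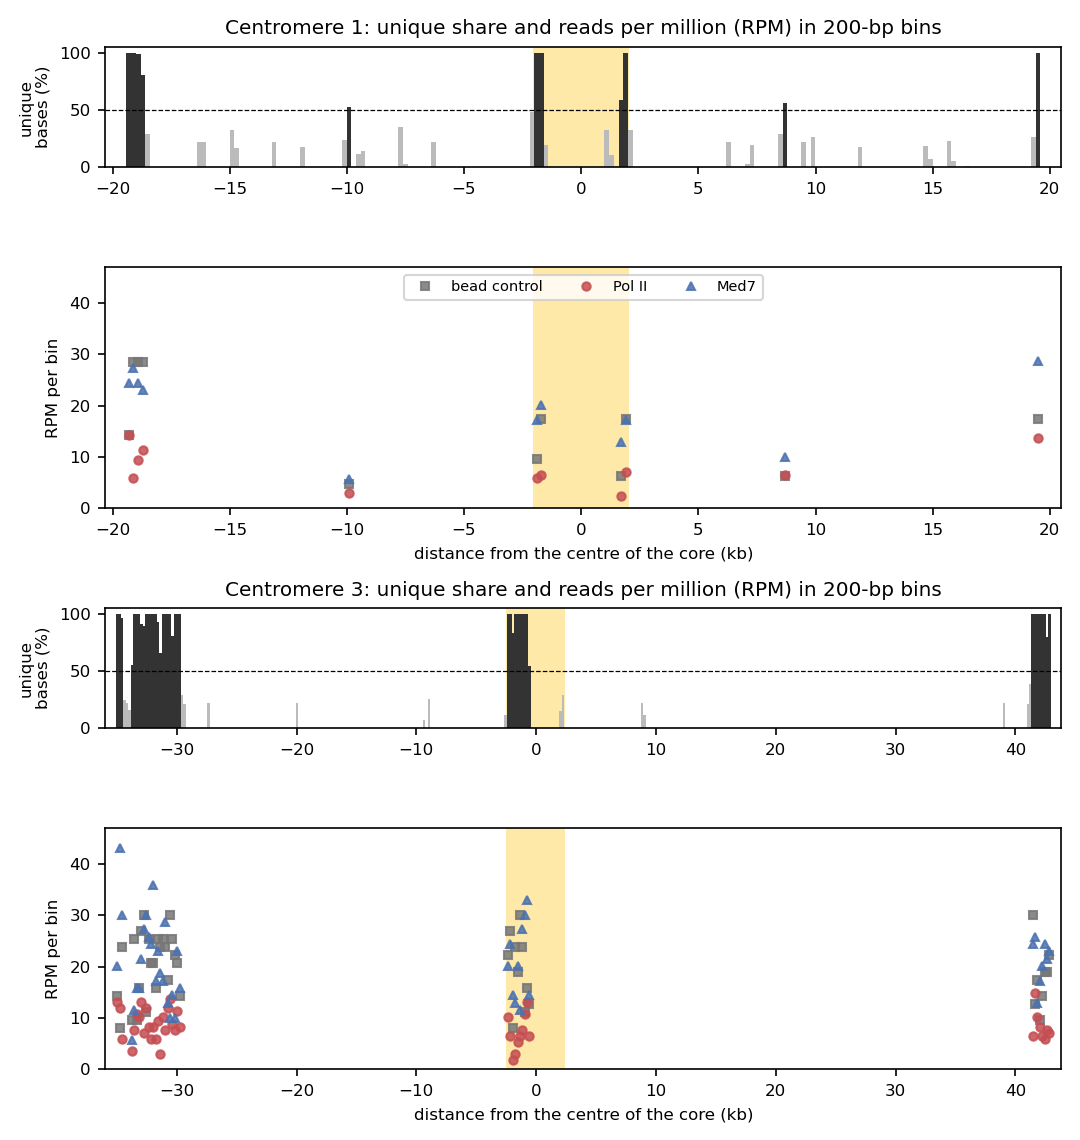
Share of unique bases (%) in every 200-bp bin, and level in RPM of the 3 libraries in the 53 used bins only. The horizontal axis is the distance from the centre of the core (kb). Dark bars are the used bins, grey bars the others, the dashed line is the 50% limit and the yellow band is the core. Points lie at the edges, at unique ends of the cores and in 2 outer repeat bins. Stretches without points are bins left out. Of the 532 bins left out, 481 held no read in any library. Pol II mostly lies below the other libraries, with Med7 highest at 43.1 RPM in the second bin past chk1.

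The cores are where CENP-A chromatin forms. Core 1 held 32 control, 37 Pol II and 47 Med7 reads in its 4 used bins, which gives 72.9, 31.5 and 97 RPM per kb. Core 3 held 122, 120 and 145 reads in its 10 used bins, which gives 103.1, 37.9 and 111.0 RPM per kb. In both, Pol II was the lowest of the 3 libraries. The Pol II fold was 0.432 (0.262 to 0.717) in core 1 and 0.368 (0.284 to 0.477) in core 3, both below 1 by more than counting error. Under scaling to the median unique 1-kb bin the core 1 interval for Pol II reached 1.007. The Med7 fold was 1.33 (0.832 to 2.15) in core 1 and 1.08 (0.841 to 1.38) in core 3, neither distinguishable from 1. Against the non-coding bins, the folds of both cores together stood at a ratio of 0.476 (0.381 to 0.595) for Pol II. For Med7 that ratio was 0.817 (0.660 to 1.009). The cores could not be told apart from each other at this depth: the ratio of core 1 to core 3 was 1.18 (0.688 to 2.01) for the Pol II fold and 1.24 (0.742 to 2.06) for the Med7 fold.

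Core 2, which is wholly unique and so measured over 34 bins, is the nearest comparison. Its levels were 63.6 RPM per kb in the control, 34.4 in Pol II and 110.5 in Med7. The Med7 levels of cores 1 and 3 together, at 107.2 RPM per kb, and of core 2 stood in a ratio of 0.970 (0.818 to 1.15), and the Pol II levels in a ratio of 1.05 (0.869 to 1.27). The control alone differed beyond counting error, at 1.49 times the level of core 2 (1.22 to 1.83). Core 3 by itself had 1.62 times the control level of core 2 (1.30 to 2.02), whereas core 1, with 32 control reads, had 72.9 RPM per kb. Consequently both folds were lower in cores 1 and 3 than in core 2, by a ratio of 0.705 (0.537 to 0.924) for Pol II and 0.650 (0.502 to 0.841) for Med7, while Med7 over Pol II, which does not use the control, had a ratio of 0.922 (0.719 to 1.18). The Med7 fold of 1.74 in core 2 and of 1.13 (0.909 to 1.41) in cores 1 and 3 thus goes with a different control level and not with a measured difference in Med7 reads. The used parts are also not the same sequence, since the block shared by cores 1 and 3 is what the limit on uniqueness removes.

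The single bins of core 1 lie at its ends. The bin chr1:3769130-3769329 had 6 control, 10 Pol II and 12 Med7 reads, with a Pol II fold of 0.623 (0.205 to 2.09) and a Med7 fold of 1.81. The next bin, chr1:3769330-3769529, had 11, 11 and 14 reads, and its Pol II fold of 0.374 (0.147 to 0.951) was the only one of core 1 called low. That call is not firm: the interval was below 1 in 4 of 7 alternatives and reached 1.43 with duplicates collapsed, 1.08 with own fragment lengths and 1.34 under scaling to the median unique 1-kb bin. It touches the first 5 bases of the long non-coding RNA gene SPNCRNA.233, most of whose length lies in the block shared with core 3. At the right end, chr1:3772730-3772929 is 59% unique and had 4, 4 and 9 reads, too few to test for Pol II. Its Med7 fold of 2.04 (0.569 to 9.06) was the highest at centromere 1, but its interval includes 1. The last, chr1:3772930-3773129, had 11, 12 and 12 reads, with a Pol II fold of 0.408 (0.165 to 1.02) and a Med7 fold of 0.989. None of the 4 used bins of core 1 reached a Med7 call.

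In core 3 the used bins form 1 run from the left end inwards, and its bins are given here in 2 stretches that were divided after their values had been seen. The first 7 bins, from chr3:1097044-1097243 to chr3:1098244-1098443, held 5 to 19 control reads and 3 to 17 Pol II reads. The 6 of them that were tested were all called low for Pol II, with folds from 0.125 to 0.454. The share called low was 15.9% of all bins, 19.1% of non-coding bins and 56.0% of the tested centromere bins. As the stretch was ended where the low folds end, the count of 6 is no result beside those shares. The interval stayed below 1 in 8 of 8 alternatives for the bins starting at 1097244, 1097644 and 1098044, but in 7 of 8 for 1097844, 5 of 8 for 1097044 and 4 of 8 for 1098244. With duplicates collapsed, for instance, the fold was 0.536 (0.230 to 1.29) at 1097044 and 0.511 (0.207 to 1.30) at 1098244. The lowest, chr3:1097644-1097843, had 15 control reads, 5 Pol II reads and 9 Med7 reads. The bin that was not tested, chr3:1097444-1097643, holds the tRNA gene SPCTRNAGLU.10 and had 5, 3 and 10 reads. The 3 bins nearest the centre of the core were not low. The bin chr3:1098444-1098643 had 7 control, 18 Pol II and 21 Med7 reads, the bin chr3:1098644-1098843 had 10, 22 and 23, and the bin chr3:1098844-1099043, which is 54.5% unique, had 8, 11 and 10. Their Pol II folds were 0.962 (0.383 to 2.72), 0.823 (0.374 to 1.95) and 0.514 (0.188 to 1.47). The first 2 of these bins have 22.5% and 25% GC, the lowest of the core, while the 7 before them have 26.5 to 35%.

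Med7 had both its called bins of the cores in this run. In chr3:1098444-1098643 the Med7 fold was 2.72 (1.11 to 7.57), called high. In chr3:1098044-1098243, with 19 control, 11 Pol II and 8 Med7 reads, it was 0.382 (0.144 to 0.913), called low. The second of these is covered in large part by the long non-coding RNA gene SPNCRNA.7206 (chr3:1097901-1098150), and over both bins that the gene touches the reads were 31, 20 and 22, with a Pol II fold of 0.241 (0.130 to 0.437). Neither Med7 call is firm. The high call was lost when duplicate reads were collapsed, at 2.51 (0.934 to 7.84), and the fold was 1.27 with reads counted at their unmoved 5' ends. The low call was lost with duplicates collapsed, at 0.443 (0.166 to 1.08), and with unmoved 5' ends, at 0.544 (0.242 to 1.17).

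**Figure D3:**
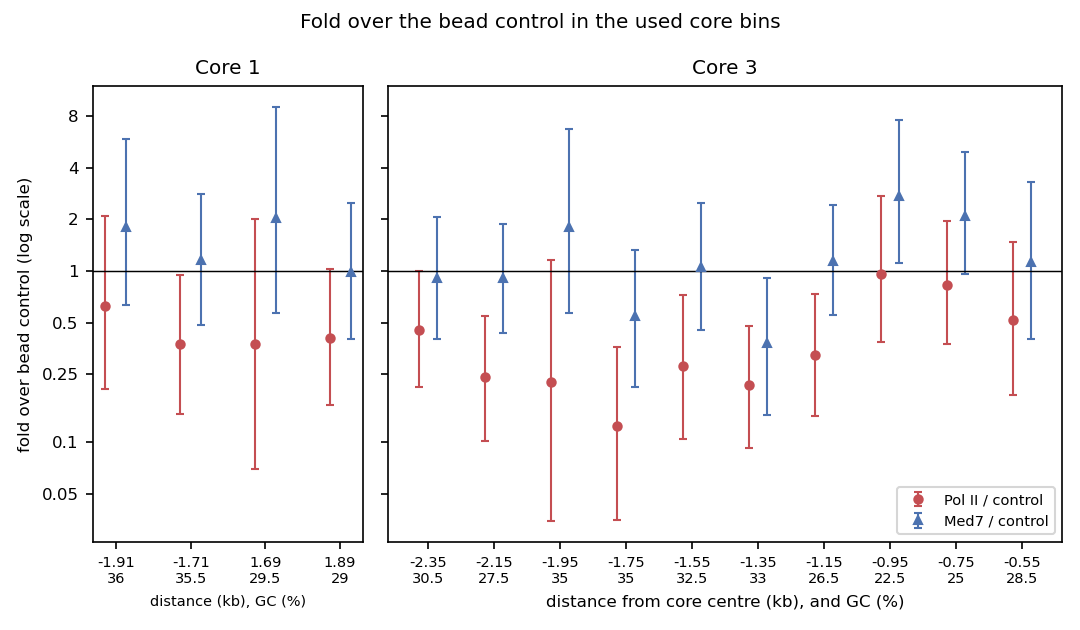
Fold of Pol II (circles) and Med7 (triangles) over the bead control, on a log axis, in the 14 used bins of core 1 and core 3 in order. The distance from the core centre (kb) and GC (%) stand under each, and bars are 95% intervals for counting error. The third bin of each core held under 10 Pol II and control reads together and was not tested for Pol II. In core 3 the Pol II fold runs from 0.125 to 0.454 over the first 7 bins and reaches 0.962 in the bin of 22.5% GC.

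The edges lie between the outer repeats and the flanking genes and carry most of the usable sequence, 37 bins. They held 471 control, 568 Pol II and 554 Med7 reads, which gives 106.3, 47.9 and 113.3 RPM per kb. The Pol II fold was 0.451 (0.398 to 0.511) and the Med7 fold 1.07 (0.941 to 1.21). Both folds were lower than in the non-coding bins, by a ratio of 0.564 (0.499 to 0.637) for Pol II and 0.770 (0.681 to 0.871) for Med7. As levels, the edges stood at 1.54 times the non-coding bins (1.405 to 1.687) in the control. For Pol II the level was 0.869 times (0.799 to 0.943) and for Med7 1.19 times as high (1.09 to 1.29). The Med7 fold was thus lower although the Med7 level was higher. Cores and edges could not be told apart by fold, with a ratio of 0.845 (0.656 to 1.09) for the Pol II fold and 1.06 (0.830 to 1.35) for the Med7 fold. The Pol II level itself was lower in the cores, at 0.755 times that of the edges (0.628 to 0.902), whereas the Med7 level stood at 0.946 times (0.799 to 1.12) and the control level at 0.893 times (0.739 to 1.07). The edges of centromere 2 were alike, with 98.8 RPM per kb in the control, 48.3 in Pol II and 111.1 in Med7. Against them the ratio of folds was 0.92 (0.733 to 1.16) for Pol II and 0.948 (0.752 to 1.20) for Med7.

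The strongest Med7 bin of either centromere was chr3:1064644-1064843, the second bin past chk1, which encodes the DNA damage checkpoint kinase. It had 5 control, 20 Pol II and 30 Med7 reads, or 7.93, 11.8 and 43.1 RPM. Its Med7 fold was 5.44 (2.09 to 17.9), and its Pol II fold of 1.5 (0.545 to 5.10) was the highest at centromere 3 but could not be told from 1. The Med7 fold stayed between 2.81 and 5.47, with an interval above 1, in 7 of 7 alternative ways of counting. The bins on either side, chr3:1064444-1064643 and chr3:1064844-1065043, had 20.1 and 30.2 RPM in Med7, against 14.3 and 23.8 RPM in the control. The other high edge bin, chr3:1066844-1067043, had 7, 20 and 21 reads and a Med7 fold of 2.72 (1.11 to 7.57), and like the high core bin it has 22.5% GC. That call was lost with each library moved by its own fragment length, at 1.90 (0.858 to 4.53). The low edge bin, chr3:1068844-1069043, had 19, 23 and 7 reads, a Med7 fold of 0.334 (0.119 to 0.829), and lies in the long non-coding RNA gene SPNCRNA.1172. Its low call was lost with duplicates collapsed, at 0.440 (0.152 to 1.15).

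Edge bins that overlap a tRNA gene, which Pol III transcribes, differed from the others in the control. There were 13 such bins, with 137.0 RPM per kb in the control, 46.5 in Pol II and 107.6 in Med7, and 24 without a tRNA gene, with 91.8, 48.6 and 116.1. Mean GC was 32.8% in the tRNA bins and 29.3% in the others, and the comparison was not matched for GC. The control level was 1.49 times as high in the tRNA bins (1.24 to 1.80), and the Pol II level 0.956 times (0.796 to 1.14) and the Med7 level 0.927 times as high (0.769 to 1.11). The ChIP levels were therefore not distinguishable between them and the control was. The Pol II fold was 0.339 (0.275 to 0.418) in the tRNA bins and 0.530 in the rest, and the Med7 fold 0.785 (0.635 to 0.970) and 1.26 (1.08 to 1.48). The ratios of these folds were 0.641 (0.496 to 0.827) and 0.621 (0.480 to 0.804). The lowest Pol II fold of the edges, 0.125 (0.0354 to 0.361), was in chr3:1068044-1068243, which overlaps the tRNA genes SPCTRNAASP.05 and SPCTRNAARG.11 and has 45% GC, with 15 control reads, 5 Pol II reads and 13 Med7 reads.

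Few of the annotated genes of the spans could be read. Of 7 tRNA genes at centromere 1 and 21 at centromere 3, 1 and 8 touch a used bin. Of the long non-coding RNA genes, 7 of 27 and 9 of 60 do. The tRNA gene at the left edge of centromere 1, SPATRNAPHE.02 (chr1:3752334-3752406, minus strand), lies in a bin with 18 control, 19 Pol II and 16 Med7 reads and a Pol II fold of 0.395 (0.196 to 0.798). Among the best covered RNA genes at centromere 3, SPNCRNA.7236 (chr3:1141320-1142247, plus strand) touches 6 bins with 64, 77 and 83 reads, a Pol II fold of 0.450 (0.319 to 0.637) and a Med7 fold of 1.18. SPNCRNA.1172 (chr3:1068597-1069142, minus strand) touches 4 bins with 61, 71 and 46 reads, a Pol II fold of 0.435 (0.305 to 0.623) and a Med7 fold of 0.683. In each of these genes the Pol II fold was at the level of the edges as a whole. Neighbouring genes share bins, so their values are not independent, and the strand of the RNA is not read by ChIP.

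At the left end of centromere 1, the bin next to per1, chr1:3751730-3751929, had 14.3 RPM in the control, 14.2 in Pol II and 24.4 in Med7, a Pol II fold of 0.997. The bin after it, chr1:3751930-3752129, had 28.5, 5.93 and 27.3 RPM and the lowest Pol II fold of centromere 1, 0.208 (0.0857 to 0.475). At the other end, beside emc5, which encodes a subunit of the ER membrane protein complex, chr1:3790530-3790729 had 17.4, 13.6 and 28.7 RPM and a Pol II fold of 0.782. The flanking genes themselves were not low as a group: over the 5 genes on each side of each centromere the Pol II fold had a median of 0.778, with a range from 0.374 to 1.48, against 0.735 over 4962 genes. Their Med7 fold had a median of 0.905 against 0.929. Beside centromere 1, per1 stood at 1.30 (1.09 to 1.57) and emc5 at 0.701 (0.502 to 0.988). Beside centromere 3, ppc1 stood at 0.960 (0.756 to 1.23) and chk1 at 0.427 (0.364 to 0.501), so on the chk1 side of centromere 3 the flanking gene is itself low. The other genes of that side were meu27 at 0.374 (0.305 to 0.459), gid1 at 0.386 (0.287 to 0.520), ubc11 at 0.547 (0.406 to 0.739) and gyp2 at 0.802 (0.653 to 0.989). As meu27 lies within the span of chk1, the 2 share reads. The left edge of centromere 3, next to chk1, stood at 0.444 (0.380 to 0.518).

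Only 2 bins among the outer repeats were unique enough to use. In chr1:3779730-3779929, which is 56.0% unique and overlaps the long non-coding RNA genes SPNCRNA.3680 and SPNCRNA.3682 on opposite strands, there were 4 control, 11 Pol II and 7 Med7 reads. Its Pol II fold of 1.03 (0.305 to 4.43) was the highest at centromere 1 and cannot be told from 1 or from the edges. The other, chr1:3761130-3761329, is the bin just inside the limit at 53.0% unique and had 3, 5 and 4 reads, or 4.76, 2.96 and 5.75 RPM. The bin just outside the limit, chr1:3768930-3769129 in the left inner arm, is 48.0% unique and had 3.17, 4.15 and 2.87 RPM.

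Within each class of base composition above 25% GC, the centromere bins had a lower Pol II fold than the non-coding bins. Among bins of 25 to 30% GC the Pol II fold was 0.498 (0.426 to 0.583) over 25 centromere bins against 0.782 over the non-coding bins. Among those of 30 to 35% GC it was 0.409 (0.336 to 0.497) over 15 bins against 0.804, and at 35% GC or more it was 0.293 (0.224 to 0.383) over 11 bins against 0.822. In the non-coding bins the Pol II fold hardly varied with GC, whereas over the centromere bins it was lower in each richer class, with intervals that overlap between neighbouring classes. The 2 centromere bins under 25% GC, 1 in core 3 and 1 in the left edge of centromere 3, had a Pol II fold of 1.02 (0.537 to 2.03) against 0.776 in the non-coding bins of that class. For Med7 the folds from the lowest to the highest class were 2.72 (1.455 to 5.39), 1.23 (1.05 to 1.44), 0.880 (0.720 to 1.075) and 0.913 (0.711 to 1.17) over the centromere bins. Over the non-coding bins they were 1.59, 1.51, 1.37 and 1.19. The 2.72 rests on 14 control and 42 Med7 reads in the 2 bins under 25% GC. Both are bins already called high for Med7 above, with calls that were lost under some alternatives. The control levels of the centromere classes were 55.5, 97.2, 113.2 and 107.4 RPM per kb, against 58.5, 69.8, 72.4 and 66.3. The Pol II levels were 56.3, 48.4, 46.3 and 31.5 RPM per kb, against 45.5, 54.6, 58.2 and 54.5. Above 25% GC the lower Pol II folds thus go with a higher control level as well as a lower Pol II level. The Med7 levels were 150.8, 119.7, 99.6 and 98.1 RPM per kb, against 93.1, 105.3, 99.5 and 79.1. In no class was the Med7 level below that of the non-coding bins.

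**Figure D4:**
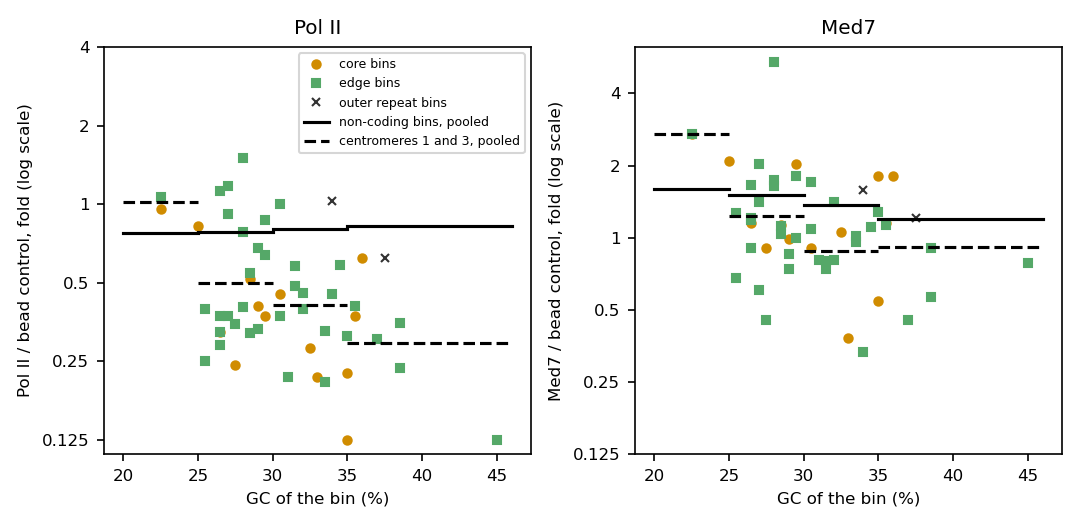
Fold of Pol II (left) and Med7 (right) over the bead control, on log axes, against the GC content of each of the 53 used bins, with lines for the pooled fold in each GC class over the centromere bins (dashed) and over non-coding bins elsewhere (solid). The dashed Pol II line falls from 1.02 to 0.293 while the solid line stays between 0.776 and 0.822.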

How the data were processed

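For each library the authors deposited the coordinates and strand of every aligned read, without scores. Bowtie 0.12.7 is named in the submitters' processing notes, with no role. For the genome build, mismatches and multiple-hit handling, details were not given in the sources used here. On ASM294v3, 0 of the 45-base reads began at a repeated 45-base sequence, against 147 control, 306 Pol II and 151 Med7 reads when moved by 1 base, so starts were read as 1-based and reads as uniquely placed. Duplicates made up 12.9% of control, 17.0% of Pol II and 16.4% of Med7 nuclear reads.

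Reads were counted at the 5' end moved by 67 bp, which is 0.5 of the Pol II fragment length of 135 bp. Each library's own length had been planned, but the strand cross-correlation was 0.0651 for Pol II and only 0.00361 for the control and 0.00465 for Med7. Folds carry exact conditional binomial 95% intervals. Bins with under 10 reads in the compared libraries together were not tested. Repeats were found with BLAST 2.17.0, and the rest was computed with scipy 1.17.1, pandas 2.3.3, numpy 2.4.6 and matplotlib 3.10.9 in Python 3.11.15. The calling rule was tested on simulated counts that vary by counting error alone. They hold no duplicate reads, so that test cannot show how the rule performs where reads are duplicated. Named bins were the highest and lowest of each centromere by fold, the highest by RPM, the used core bins and those next to the uniqueness limit. The annotated features and the neighbouring bins that are named were chosen after their values were seen, and the edges and the tRNA split were defined after the files had been read. The members, lists and comparisons were chosen with earlier results of these data known.

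Alternatives were scaling to all nuclear reads or to the median unique 1-kb bin, collapsed duplicates, unmoved 5' ends, 90% uniqueness, bins started 100 bp further in, and no minimum or 20 reads. Added after seeing the data were each library's own fragment length, uniqueness at the bases a read can start from, and leaving out the bin with the most Med7 reads of each core and edge.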

Additional observations from a re-analysis of the deposited data

Results flagged for a closer look

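A bin outside the comparisons, chr1:3769530-3769729, lies in core 1 across the start of the block shared with core 3 and is 19.5% unique, so it was not used. It held 2 control, 2 Pol II and 13 Med7 reads, and the Med7 fold was 5.89 (1.33 to 53.8). The 13 Med7 reads came from 9 distinct positions and the control reads from 2, and no fold was computed from distinct positions. It was picked out because its Med7 signal exceeded the control in data that no comparison above uses. Of the 532 unused bins, 9 held at least 10 Med7 and control reads together, and this was the 1 of them called high. Among the tested used bins, 5.58% were high across the genome and 13.3% in the non-coding bins. The call of 1 of 9 is near the non-coding share and is not a result about the unused bins. The cause of the Med7 signal in the flagged bin was not tested.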

How the results depend on the processing

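Of 646 values recomputed under the alternatives, 624 stayed within their counting interval or, for counts, within 1.5 times, 21 moved and 1 reversed; a fold can stay within its interval and still lose a call. Scaling to the median unique 1-kb bin raised the Pol II fold to 0.517 in core 3, 0.536 in both cores, 0.633 in the edges and 0.616 over all used bins, left 11 bins low, and turned the Pol II fold of the non-coding bins from 0.800 to 1.12. On that scale Med7 over Pol II was 2.10 in core 3, 2.12 in both cores, 1.69 in the edges and 1.77 over all used bins, with 18 of 52 bins high against 8.28% of all bins and 22.9% of non-coding bins. Collapsing duplicates gave a Pol II fold of 0.493 and Med7 over Pol II of 2.23 over all used bins, with 19 bins low for Pol II against 10.2% of all bins and 12.3% of non-coding bins, and 0 bins low for Med7 against 3.4% and 0.714%. With unmoved 5' ends and with bins started 100 bp further in, 1 bin was low for Med7. The Pol II interval of core 3, the edges and all used bins stayed below 1 in 9 of 9 alternatives, that of core 1 in 8 of 9. The Med7 interval of the cores and edges included 1 in all 9. The ratios of both folds to core 2 stayed below 1 in 9 of 9. Scaling of a library cancels in any ratio of folds between regions, so the scaling alternatives could not change such ratios. Their unchanged values under scaling count among the 624. No paired analysis was possible because each group has 1 library, which also leaves no replicate to leave out. Depth limits single bins, and 532 of the 585 bins could not be used with uniquely placed 45-base reads.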
